A study of Mus musculus with 2 samples.

Results

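The chemokine genes Ccl5, Ccl9, Ccl6, Ccl3 and Ccl4 on chromosome 11 and Xcl1 on chromosome 1 were examined for Runx3 peaks in activated mouse natural killer (NK) cells. Peaks were chosen by the position of their midpoint, in chr11:83300000-83520000 for the 5 Ccl genes and in chr1:166800000-166920000 for Xcl1, both in the build mm9. The rule found 24 of the 19647 peaks in the list, 20 of the 1662 on chromosome 11 and 4 of the 1213 on chromosome 1. The windows were set with these peaks already known, so the number of peaks in them is given as a description.

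The peaks come from chromatin immunoprecipitation with sequencing, which recovers the DNA fragments that a protein is attached to, using a polyclonal antibody to the Runt-domain transcription factor Runx3. The cells were 40000000 wild-type splenic NK cells of ICR mice that had been given IL-15/Ra complexes 2 times with 2 days between, and they were enriched by negative selection and sorted for NKp46, a receptor of NK cells. A control library was made from the same kind of cells with non-immune rabbit serum, and its values were not used here. Each antibody had 1 library, and the number, age and sex of the mice, the dose and whether spleens were pooled are not stated in the labels. The deposited list places each peak on its chromosome but holds no height, score or read count, so read depth is unknown, no value has a spread between replicates and no test was made. Its name includes the words "to small", and the labels do not say whether it holds every peak or a subset. They name no peak caller. No mm9 genome or gene annotation was used, so no peak was assigned to a gene, exon or intron.

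Chemokines are small secreted proteins that direct the movement of cells that carry the matching receptors. Activated NK cells are known as a source of Ccl3, Ccl4 and Ccl5, which attract T cells and myeloid cells, and of Xcl1, which attracts dendritic cells that carry Xcr1. Ccl6 and Ccl9 are ligands of Ccr1 that are best known from myeloid cells. Runx proteins bind DNA as a complex with Cbfb, at sites with the core letters TGTGGT or TGCGGT.

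In the GRCm38.p6 gene table, used for names and order alone, Ccl5 came first and was followed by Ccl9, Ccl6, Ccl3 and Ccl4. The row from Ccl5 to Ccl4 held 9 annotated genes, of which 4 were not among the chemokine genes studied. These were the pseudogenes Ccl16-ps and Rpl9-ps1 and the long non-coding genes E230016K23Rik and Gm38933. The genes next to Xcl1 in that table were the long non-coding Gm20743 and Gm39692.

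The bases before the start of 4 of the 6 genes are shown because they carry, or lack, the core letters that Runx proteins recognise. They are RefSeq promoters of the build GRCm38.p6, which cannot be set against the mm9 positions of the peaks, and they were not read from the NK cells. Ccl4 and Ccl5 had no entry in the promoter table. All 4 genes lie on the minus strand. Capitals mark TGTGGT, or ACCACA where it lies on the other strand, and each line runs 5′ to 3′ along the gene and ends at the base before its start. The 250 bases lie at chr11:83649379-83649628 for Ccl3, chr1:164935523-164935772 for Xcl1, chr11:83578637-83578886 for Ccl9 and chr11:83593088-83593337 for Ccl6.
Ccl3 upstream: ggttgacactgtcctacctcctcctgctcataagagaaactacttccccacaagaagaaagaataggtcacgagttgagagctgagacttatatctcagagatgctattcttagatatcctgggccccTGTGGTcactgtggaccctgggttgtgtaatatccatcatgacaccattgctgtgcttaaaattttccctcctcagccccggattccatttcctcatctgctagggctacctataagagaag
Xcl1 upstream: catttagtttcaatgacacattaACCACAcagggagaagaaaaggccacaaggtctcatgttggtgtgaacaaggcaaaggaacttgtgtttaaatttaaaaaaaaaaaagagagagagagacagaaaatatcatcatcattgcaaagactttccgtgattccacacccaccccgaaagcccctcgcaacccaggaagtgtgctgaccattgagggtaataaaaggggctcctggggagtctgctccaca
Ccl9 upstream: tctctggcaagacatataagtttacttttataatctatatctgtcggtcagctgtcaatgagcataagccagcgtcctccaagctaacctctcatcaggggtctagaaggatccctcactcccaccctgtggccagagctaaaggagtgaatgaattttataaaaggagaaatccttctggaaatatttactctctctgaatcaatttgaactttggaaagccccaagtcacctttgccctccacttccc
Ccl6 upstream: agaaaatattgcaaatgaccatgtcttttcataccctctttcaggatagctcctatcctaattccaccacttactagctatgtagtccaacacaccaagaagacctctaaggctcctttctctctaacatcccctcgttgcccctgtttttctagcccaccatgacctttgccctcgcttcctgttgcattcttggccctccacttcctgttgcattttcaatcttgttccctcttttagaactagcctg

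Ccl3 carried TGTGGT on the strand of the gene, with its first base 122 bases before the start. Xcl1 carried the same letters on the opposite strand, as ACCACA, beginning 227 bases before the start. Ccl9 and Ccl6 held neither TGTGGT nor TGCGGT on either strand in their 300 bases (250 before the start and 50 from it on). Thus 2 of the 4 promoters held the letters, beside 22.4% of all 32851 promoters in the table. Among the other chemokine and chemokine receptor genes listed, 28 were in the promoter table and 4 held them. The 4 genes were Ccl20, Cxcl9, Cxcl3 and Ccr1. Ccl20 is a ligand of Ccr6, Cxcl9 is an interferon-induced ligand of Cxcr3, and Cxcl3 attracts neutrophils. Ccr1 is a receptor whose ligands include Ccl3, Ccl6 and Ccl9. A match shows that the letters are present and not that Runx3 was bound there.

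The 20 peaks of the Ccl window spanned 136 kb, from 83340504 to 83476144, and left both ends of the 220 kb window empty. Neighbouring peaks whose midpoints were at most 10 kb apart were joined into stretches, which gave a stretch of 12 peaks, a lone peak, a pair and a stretch of 5. The first 40 kb of the window held 0 peaks, the next 20 kb held 7, and the 20 kb after that held 4. The stretch of 12 thus lay in the part of the window nearest its start, and the stretch of 5 in the part nearer its end. The gene order in the rule runs the same way, from Ccl5 at the lower coordinates to Ccl3 and Ccl4 at the higher ones. Distances from a peak to a gene were not measured.

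**Figure D1:**
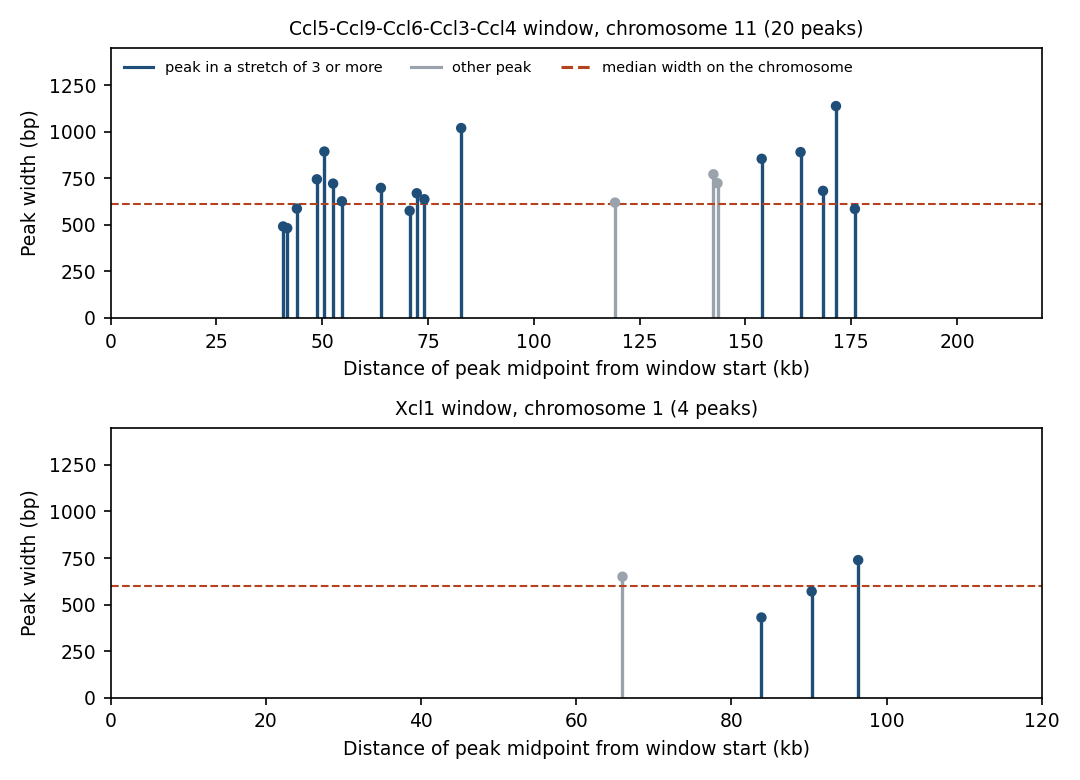
Width of each Runx3 peak in bp (vertical axis) against the distance of its midpoint from the start of its window in kb (horizontal axis), for the Ccl window (top) and the Xcl1 window (bottom). Each stem is 1 peak, blue for stretches of 3 or more, and the dashed line is the median width on the chromosome. Of the 20 Ccl peaks, 12 lie between 40.7 and 82.8 kb and 5 between 154 and 176 kb, while the 4 Xcl1 peaks lie between 66.0 and 96.3 kb.

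The stretch of 12 covered 42.8 kb, from 83340504 to 83383336. It opened with a narrow pair, chr11:83340504-83340994 and chr11:83341474-83341955, of 491 and 482 bp with a gap of 479 bp. The peak chr11:83343702-83344288, of 587 bp, followed. All 3 of these were narrower than the chromosome's median of 613 bp. Then came 4 peaks at steps of 1.77 to 4.73 kb, all wider than that median. They were chr11:83348356-83349099 (744 bp), chr11:83350048-83350940 (893 bp), chr11:83352203-83352923 (721 bp) and chr11:83354321-83354946 (626 bp). After a step of 9.22 kb lay chr11:83363503-83364200, of 698 bp.

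The stretch went on with 3 peaks between 575 and 669 bp wide, chr11:83370357-83370931, chr11:83371998-83372666 and chr11:83373804-83374440. It ended with chr11:83382318-83383336, which at 1019 bp was the widest of the 12. Of all 1662 peaks on chromosome 11, 89.5% were at most that wide. Steps within the stretch were uneven, from 0.966 to 9.22 kb.

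The middle of the window was sparse. From the end of the stretch of 12 to the lone peak chr11:83418873-83419491 (619 bp) the midpoints lay 36.4 kb apart, the longest step in the window. A further 23.2 kb led to the pair chr11:83442032-83442802 (771 bp) and chr11:83443025-83443747 (723 bp), whose gap of 222 bp was the smallest between any members.

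The stretch of 5 covered 22.7 kb, from 83453399 to 83476144. The step to it from the pair was 10.4 kb, just over the joining distance. Its peaks were chr11:83453399-83454252 (854 bp), chr11:83462570-83463459 (890 bp), chr11:83467978-83468659 (682 bp), chr11:83470814-83471950 (1137 bp) and chr11:83475560-83476144 (585 bp). The fourth of them was the widest of all 24 peaks, and 93.3% of the peaks on chromosome 11 were at most as wide. Only the last of the 5 was narrower than the chromosome's median.

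The peaks just outside the Ccl window were well separated from those inside it. On the lower side the nearest was chr11:83286100-83286827, of 728 bp, 54.3 kb before the first member. On the upper side it was chr11:83567019-83567635, of 617 bp, 91.5 kb after the last.

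The 4 peaks of the Xcl1 window spanned 31.1 kb, from 166865641 to 166896708. The first, chr1:166865641-166866290, was 650 bp wide and stood 17.9 kb before the others. The other 3 formed a stretch of 13.1 kb with steps of 6.47 and 5.99 kb. They were chr1:166883658-166884088 (431 bp), chr1:166890061-166890631 (571 bp) and chr1:166895970-166896708 (739 bp). The smallest gap among the 4 was 5338 bp. The nearest peak below the group, chr1:166387851-166389374 (1524 bp), lay 477 kb away, and the nearest above it, chr1:167050603-167050895 (293 bp), lay 154 kb away.

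Chromosome 11 was then divided into windows of 220 kb laid end to end from the Ccl window, to show how its 20 peaks compare with the rest of the chromosome. The other 537 windows held 3.05 peaks on average, with a median of 1, and 212 of them (39.5%) held 0. The Ccl window held 6.56 times that mean, and its exact 95% Poisson interval, which covers counting error only and takes peaks as independent, ran from 12.2 to 30.9 peaks. No other of these windows held as many, the next holding 19, so 0.186% of the 538 windows (the Ccl window itself) had 20 or more. Peaks covered 6.55% of its bases, against 0.95% on average in the other windows, and 1 other window had more bases covered.

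This first place depended on the size of the windows and on where they were laid. In windows of 260 kb, widened by 20 kb at each end, the Ccl window held 21 peaks, and 1 of the 455 windows held more, with 25. Narrowed by 20 kb at each end, the Ccl window held 20 peaks and was the only 1 of 659 windows with as many. The parts cut from the Ccl window were empty, so narrowing could not lower its count, and this setting is no check on its place. With windows of 220 kb laid from the first peak of the chromosome, 1 of 539 held 20 or more. Whether that window lay over the Ccl peaks was not checked. When a window of 220 kb was slid along chromosome 11 in steps of 10 kb, 27 of 11842 positions held 20 or more peaks. Of these, 10 overlapped the Ccl window and 17 lay elsewhere, at 3 places. The count reached 22 near the Ccl window and 24 at chr11:96830000-97049999. Runs of consecutive peaks were compared too. Their length was taken from the count in the Ccl window or its stretch, so this ranking is not free of the window. The 136 kb from the first to the last Ccl peak was the shortest of all 1643 runs of 20 consecutive peaks on the chromosome. The median length of those runs was 824 kb. For 12 consecutive peaks, 5 of 1651 runs were shorter than the 42.8 kb of the Ccl stretch.

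**Figure D2:**
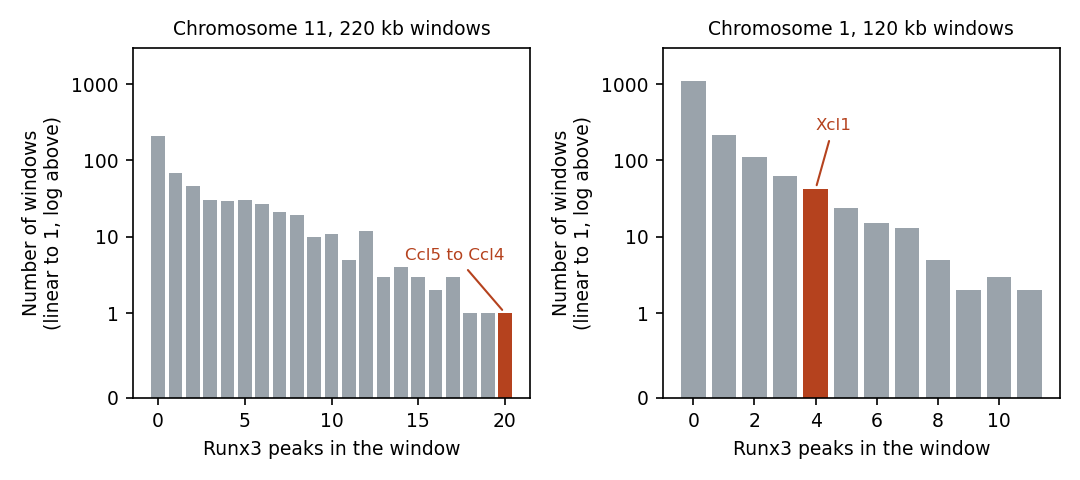
Number of windows (vertical axis, linear to 1 and logarithmic above) by the Runx3 peaks they hold (horizontal axis), for 220 kb windows on chromosome 11 (left) and 120 kb windows on chromosome 1 (right). The bar that holds the chemokine window is red. The Ccl window stands alone at 20 peaks, whereas the Xcl1 window shares its 4 peaks with 41 other windows and 64 hold more.

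For Xcl1, windows of 120 kb were laid along chromosome 1 in the same way. The other 1601 windows held 0.753 peaks on average, and 1104 of them (69.0%) held 0. The 4 peaks of the Xcl1 window were 5.31 times this mean, with a 95% Poisson interval of 1.09 to 10.2 peaks. Against windows that held at least 1 peak the ratio was 1.65. Of all 1602 windows, 6.62% held 4 or more. The densest held 11, as at chr1:75120000-75239999. The Xcl1 window thus lay above most of chromosome 1 but well within its range. Of the 1210 runs of 4 consecutive peaks on the chromosome, 137 were shorter than the 31.1 kb at Xcl1.

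The surroundings of the 2 loci were compared over 5 equal windows on each side. Below the Ccl window the nearest windows held 6, 4, 3, 2 and 0 peaks, from near to far. Above it they held 1, 2, 1, 0 and 1. On both sides the largest drop came within 1 window, from 20 to 6 at the Ccl5 end and to 1 at the Ccl4 end. All of these flanking counts lay below 9, the 90th percentile of the other windows of chromosome 11. Below the Ccl window, however, the counts of 6, 4, 3 and 2 were above the median of 1 for those windows. The counts of 6 and 4 were also above their mean of 3.05. On the upper side only the count of 2 was above that median. Around Xcl1 the 3 windows below and the 1 above held 0 peaks, and the most in any of the 10 was 5.

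**Figure D3:**
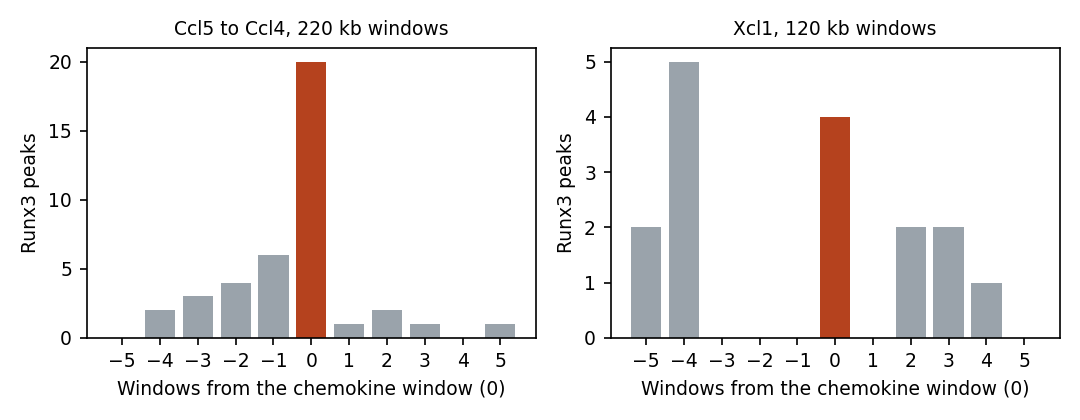
Runx3 peaks per window (vertical axis) in the chemokine window (0, red) and the 5 windows of the same size on each side (grey), for 220 kb windows at the Ccl genes (left) and 120 kb windows at Xcl1 (right). The 20 Ccl peaks stand beside at most 6 in a flanking window, and the 4 Xcl1 peaks have empty windows directly on both sides.

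Within the Ccl window the peaks lay closer together than the median on chromosome 11. The distance between neighbouring midpoints ranged from 0.966 to 36.4 kb with a median of 4.47 kb, whereas the median over all 1661 neighbouring pairs of the chromosome was 17.9 kb. Of the 19 pairs in the window, 16 (84.2%) were at most 10 kb apart, compared with 37.1% on the chromosome. At Xcl1, 2 of 3 pairs were at most 10 kb apart, compared with 28.1% of the 1212 pairs on chromosome 1. The Xcl1 share rests on those 3 pairs alone and was not set against windows with a similar number of peaks. A window with many peaks must hold short distances, so the Ccl window was also set beside the 45 other windows of chromosome 11 with at least 10 peaks. These 45 held 10 to 19 peaks with a median of 12, all fewer than the 20 of the Ccl window. The comparison therefore lessens the effect of peak number without removing it. Their median distances ran from 2.11 to 23.7 kb, with a median of 10.3 kb, and 5 of the 45 were at or below that of the Ccl window. Their share of pairs within 10 kb had a median of 50% and was as high as in the Ccl window in 2 of the 45. The windows nearest to it in count, with 17 to 19 peaks, had median distances of 2.32, 2.98, 5.10, 5.74 and 6.77 kb.

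**Figure D4:**
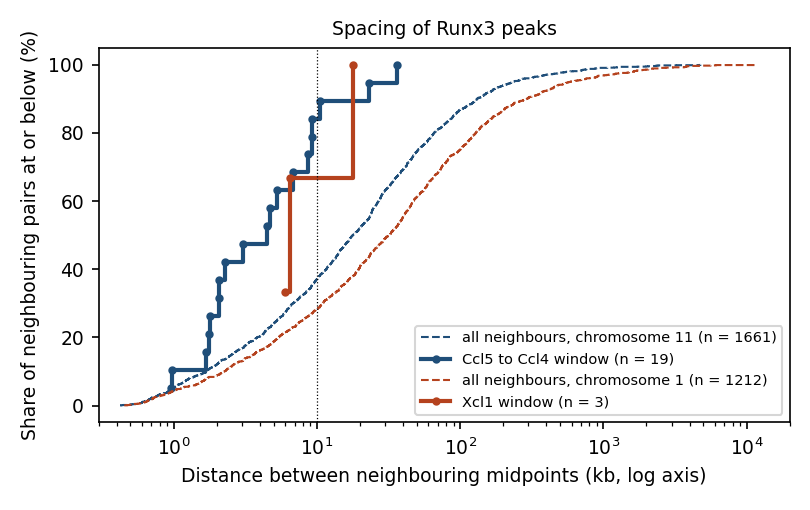
Share of neighbouring pairs in percent (vertical axis) whose midpoints lie at or below a given distance in kb (horizontal axis, logarithmic), for the Ccl and Xcl1 windows (solid) and for all pairs on chromosomes 11 and 1 (dashed). The dotted line marks 10 kb, where the Ccl window reaches 84.2% and chromosome 11 reaches 37.1%.

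The stretch of 12 was among the largest in the whole list when peaks were joined at 10 kb. Of 13450 stretches, lone peaks included, 8 held 12 or more peaks, and 4 of those held more than 12. Chromosome 11 had 3 of the 8. Joined at 5 kb, the largest Ccl stretch held 7 peaks. Of 15497 stretches in the list at that distance, 19 held 7 or more and 6 of those held more than 7. Joined at 20 kb, the largest Ccl stretch held 12. Of 10784 stretches, 38 then held 12 or more and 32 of those held more than 12. Stretches as large as the one of 5 at the upper end were more frequent, with 268 in the list and 27 on chromosome 11. Stretches as large as the 3 peaks at Xcl1 numbered 1312 in the list and 73 on chromosome 1. Among the 45 windows with at least 10 peaks, the largest stretch had a median of 4 peaks, and in 2 windows it had 12 or more. Those windows all held fewer peaks than the Ccl window, which leaves less room for a large stretch. In the ones with 17 to 19 peaks, the largest stretch held 5, 5, 8, 9 and 15.

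The Ccl peaks were mostly of middle to upper width. Their widths ran from 482 to 1137 bp with a median of 690 bp, and 15 of the 20 (75%) were wider than the median of chromosome 11. The interquartile range on the chromosome was 512.5 to 786 bp, and 2 of the 20 were wider than 1000 bp, beside 183 of the 1662 peaks on it. In the 45 windows with at least 10 peaks, the median width ran from 492 to 832 bp and was 690 bp or more in 7. The 4 Xcl1 peaks ran from 431 to 739 bp with a median of 610.5 bp, close to the 600 bp of chromosome 1, and 2 of the 4 were wider than it. The widest peaks of the 2 chromosomes, 3335 bp on chromosome 11 and 5413 bp on chromosome 1, lay outside both windows.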

How the data were processed

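Per the labels' protocols, cells were fixed with 1% formaldehyde, DNA was sonicated to about 200 bp and 50 bp reads were aligned with ELAND. The tool CASAVA 1.8.2 and the build mm9 come from the submitters' processing notes. The deposited list holds peak starts and ends as made by the authors. Of the peak caller, its threshold and its use of the control, nothing is given in the sources used here. Starts were taken as BED starts, which count from 0, and 1 was added.

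Widths, midpoint distances, stretches and window counts were computed with Python 3.11.15, numpy 2.4.6 and scipy 1.17.1, and the counting was tested on simulated data. Equal windows were laid both ways from the chemokine window, whole windows between the first and last peak of the chromosome. All 6 genes and all 24 peaks are named. No test was made, since each antibody had 1 library. The genes, windows, lists and comparisons were chosen with earlier results of these data known. The gene and promoter tables are RefSeq's, GRCm38.p6, and no coordinate was converted. The other listed genes were all symbols beginning Ccl, Cxcl, Xcl or Cx3cl with a number, and the receptors Ccr1, Ccr3, Ccr4 and Xcr1; 1 other listed gene is not reported here.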

Additional observations from a re-analysis of the deposited data

How the results depend on the processing

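Of 77 values recomputed under other settings, 61 stayed within the counting interval of the reported value, or within 1.5 times a count, and 16 moved. The counting intervals are wide for small counts, so a value that stayed can still differ much from the reported one. The runs of consecutive peaks and the comparison with windows of at least 10 peaks were chosen after seeing the data. At the Ccl window, the ratio to the mean was 3.97 with empty windows left out and 11.3 against all autosomes, where 15 of 10869 windows held 20 or more peaks. With stretches joined at 5 kb, its share of close neighbours was 57.9% and its largest stretch held 7 peaks. At the Xcl1 window, the ratio was 1.65 with empty windows left out, which lies within the wide counting interval of 4 peaks. Its share of windows with as many peaks was 9.41% with windows widened by 20 kb at each end, 3.24% with them narrowed, 21.3% without empty windows, 9.10% over all autosomes, 8.86% for peaks at or above the median width of the list (which left 2 peaks, none within 10 kb of the other: 0% of pairs and a largest stretch of 1) and 11.4% by runs of consecutive peaks. Joining at 5 kb gave Xcl1 0% of pairs and a largest stretch of 1, and joining at 20 kb gave 100% of pairs. Joining peaks across gaps of up to 1000 bp left 17 peaks at the Ccl window, still the most of 538 windows, and 10 in its largest stretch. No paired analysis was possible because there is only 1 library for each antibody. Depth is unknown, so sites missed for lack of depth cannot be counted.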
